A study of Solanum lycopersicum with 12 samples.

Results

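The tonoplast aquaporins (TIPs) of tomato were followed through lateral root formation. The 9 genes were chosen by their Solyc locus tags, from the 34027 genes of the table, and the rule uses no measured value, although the family was picked with earlier results of these data known. They are TIP1-1 (Solyc06g074820), TIP1-2 (Solyc06g075650), TIP1-3 (Solyc10g083880), TIP2-1 (Solyc12g044330), TIP2-2 (Solyc03g120470), TIP2-3 (Solyc06g060760), TIP3-1 (Solyc06g072130), TIP3-2 (Solyc03g019820) and TIP4-1 (Solyc08g066840). The deposited table holds tags only, and the TIP names came with the list of tags that defined the family here. The first digits of a tag give the chromosome. TIP1-1, TIP1-2, TIP2-3 and TIP3-1 thus lie on chromosome 6, TIP2-2 and TIP3-2 on chromosome 3, TIP4-1 on chromosome 8, TIP1-3 on chromosome 10 and TIP2-1 on chromosome 12. Genome coordinates and sequences were not used here.

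TIPs are channel proteins of the vacuolar membrane. They let water, and in some members small solutes such as ammonia or urea, pass between the cytosol and the vacuole, and they are abundant in expanding root cells with a large central vacuole. In Arabidopsis, loss of several TIPs delays the emergence of lateral roots, whose primordia push through the tissue that covers them. The TIP1 and TIP2 subfamilies are mainly found in vegetative organs, TIP4 is known from Arabidopsis roots, and TIP3 proteins belong to the storage vacuoles of seeds.

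Seedlings of tomato cultivar M82 carried the auxin reporter DR5::VENUSx3-NLS in all groups and grew on agar with sucrose. A control section came from the differentiation zone without lateral roots. The other groups were primary root pieces with a lateral root at stage 1 (a pair of DR5-expressing cells), stage 2 (first periclinal division), stage 3 (passing the endodermis), stage 4 (in mid-cortex) or stage 5 (at the epidermis, not yet emerged). There were 2 libraries for each of the 6 groups, and the labels do not say whether they came from separate plants, so p-values measure only the spread between these libraries. Each piece held old primary root tissue beside the primordium. In such sections, fewer cells of a type and less RNA per cell cannot be told apart.

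Library totals ran from 1948144 counts (stage 5 replicate 2) to 6196272 counts (stage 1 replicate 1). Levels are in CPM, the count scaled to the TMM-adjusted library total. The libraries read only the 3′ end of each transcript, so CPM values of different genes were compared without a length correction. A floor of 3 counts, used as the limit of detection, stood between 0.484 and 1.54 CPM, depending on the library. No TIP had a fractional count in any library, against 3057 of the tested genes that did in at least 1. Whether whole reads went to a similar gene was not tested. Of the 9 TIPs, 7 passed the filter on low counts and were tested, and 6 of these had at least 10 counts in every library. TIP3-1 and TIP3-2 did not pass. No source used here pairs other tags with names, so the tissue of the sections was not checked against marker genes, and the share of each piece that was primordium was not measured.

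The summed TIP level was highest at stage 1 and lowest at stage 5. TIP1-1, TIP1-3 and TIP2-3 made up most of this sum in every library. TIP4-1 had its own highest mean at stage 2 (254 CPM, against 235 CPM at stage 1). Summed over the 9 genes, the level was 5733 and 4993 CPM in the control, 9214 and 9730 at stage 1, 7496 and 6086 at stage 2, 2725 and 3245 at stage 3, 1086 and 2072 at stage 4, then 486 and 727 at stage 5. No library of stages 3, 4 or 5 reached any library of the control, stage 1 or stage 2. The mean sum at stage 1 was 1.77 times that of the control and 15.6 times that of stage 5. In raw counts, TIPs took 0.881% and 0.966% of all counts at stage 1, and 0.0457% and 0.0701% at stage 5. Sums were not tested, since the genes were tested one by one.

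**Figure D1:**
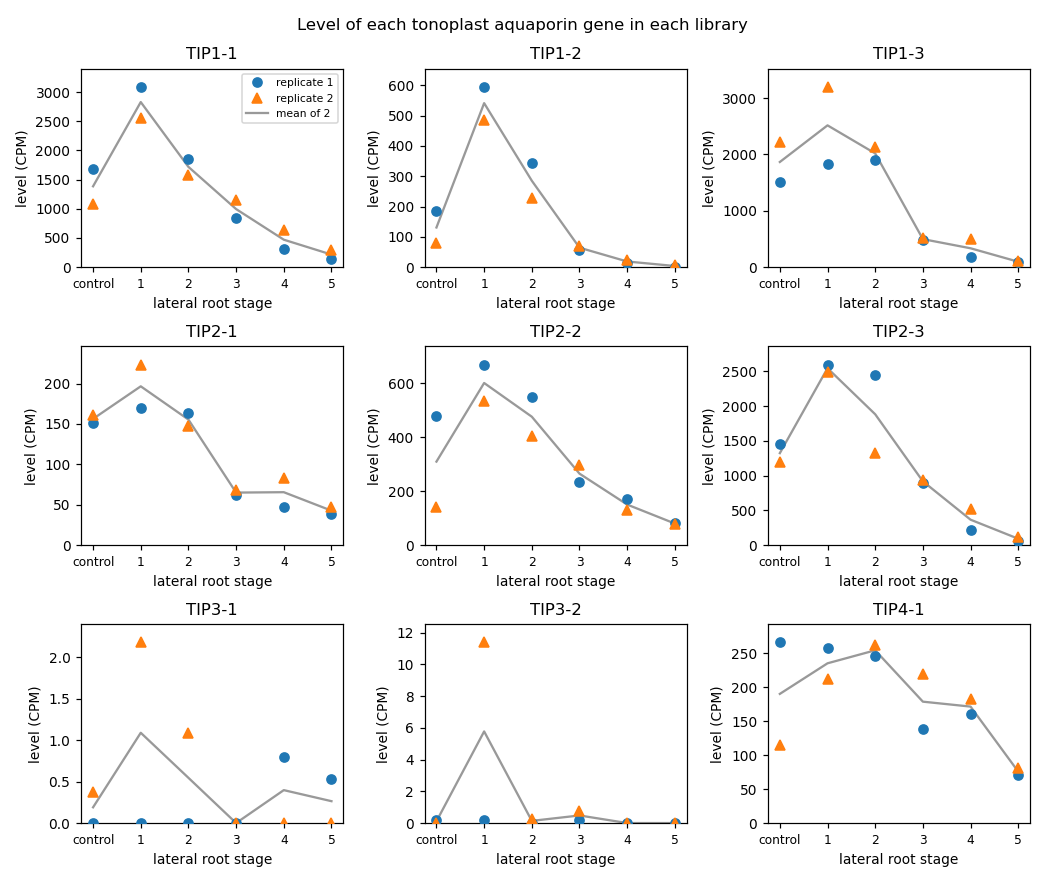
Level of each TIP gene in CPM (vertical axis, from 0, own scale per panel) by lateral root stage, with circles for replicate 1, triangles for replicate 2 and a grey line through the mean of 2. TIP1-1 had its highest mean, 2829 CPM, at stage 1 and 216 CPM at stage 5, while TIP3-2 was above its neighbours in 1 library only, with 11.4 CPM.

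All 7 tested TIPs differed among the 6 groups in edgeR's quasi-likelihood F test, with adjusted p-values between 1.2e-05 (TIP1-2) and 0.0161 (TIP4-1). Over all 18357 tested genes, 44.4% were called in this test. All 7 were also called with a downward slope over stage number, where 23.9% of tested genes were called so. Per step of stage, the slope in log2 units ran from −1.37 ± 0.271 (SE) for TIP1-2 to −0.23 ± 0.0872 for TIP4-1. The slope of TIP4-1 had an adjusted p-value of 0.0391 (edgeR) and lost its call when any of 7 single libraries was left out, with 0.145 without stage 5 replicate 1 as the highest.

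The TIP1 genes held 2 of the 3 most abundant TIPs. TIP1-1 had the highest mean over all 12 libraries, but TIP1-3 had the higher group mean at stage 2 (2018 against 1718 CPM) and in the control (1866 against 1386 CPM). Its level was 1688 and 1083 CPM in the control, 3093 and 2564 at stage 1, 1853 and 1583 at stage 2, 848 and 1143 at stage 3, 306 and 635 at stage 4, then 144 and 287 at stage 5. Both stage 1 libraries stood above all others, and both stage 5 libraries below all others. At stage 1 it was the 24th and the 30th most abundant of all genes, and at stage 5 the 1213th and the 601st. The control and stage 2 libraries overlapped, as did those of the control and stage 3.

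TIP1-1 was 2829 ± 374 CPM at stage 1 and 1386 ± 428 CPM in the control (SD, n = 2 each), a log2 change of 1.03 ± 0.372 (SE) that did not pass (adjusted p-value 0.0913, edgeR). It fell at stage 4, with a log2 change of −1.56 ± 0.377 (adjusted p-value 0.00786, edgeR), and at stage 5, with −2.69 ± 0.395 (adjusted p-value 0.000209). The stage 4 call was lost without control replicate 1 (−1.20, adjusted p-value 0.0562, edgeR) and without stage 4 replicate 1 (−1.13, 0.0754), while the change was −2.20 without stage 4 replicate 2.

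TIP1-2, the least abundant of the 3 TIP1 genes, had the largest fold changes of the 7 at stages 1, 4 and 5. It stood at 184 and 78.1 CPM in the control, 595 and 486 at stage 1, 342 and 228 at stage 2, 57.3 and 71.2 at stage 3, 14.3 and 23.2 at stage 4, then 1.32 and 6.39 at stage 5. The 6 groups followed one another without overlap, in the order stage 1, stage 2, control, stage 3, stage 4 and stage 5. The stage 5 levels rest on 5 and 12 counts, with exact Poisson 95% intervals of 0.428 to 3.07 and 3.3 to 11.2 CPM, which cover counting error only.

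At stage 1 TIP1-2 was higher than in the control, by 2.04 ± 0.427 (SE) log2 units or 4.11-fold (adjusted p-value 0.00914, edgeR). It was the only one of the 7 TIPs called at this stage, where 9.94% of tested genes were called higher. Taken over every tested gene, the median log2 change was itself 0.143 for stage 1 and 0.105 for stage 2, so changes of that size against the control cannot be told from the scaling. The call was lost without control replicate 2 (1.56, adjusted p-value 0.0636, edgeR) and without stage 1 replicate 1 (1.89, 0.0624), while the change was 2.79 without control replicate 1.

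At the later stages TIP1-2 fell below the control. Its log2 change was −2.81 ± 0.457 at stage 4 (adjusted p-value 0.000677, edgeR) and −5.35 ± 0.599 at stage 5 (adjusted p-value 2.96e-05), where it was 40.9 times lower. Set directly against stage 1, stage 5 was 168 times lower, a log2 change of −7.39 ± 0.615 (adjusted p-value 1.25e-05, edgeR). Its mean at stage 5 was 0.713% of its mean at stage 1. Single libraries moved these sizes but ended no call. Without control replicate 1 the change was −2.05 at stage 4 and −4.61 at stage 5. Without stage 5 replicate 1 it was −4.36 against control and −6.37 against stage 1, and without stage 5 replicate 2 it was −6.62 and −8.65.

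TIP1-3 had levels near those of TIP1-1 in the early groups. It had 1514 and 2218 CPM in the control, 1829 and 3203 at stage 1, 1899 and 2137 at stage 2, 486 and 509 at stage 3, 174 and 497 at stage 4, then 85.9 and 107 at stage 5. The control, stage 1 and stage 2 libraries overlapped. The libraries lay apart between stages 2 and 3, with a log2 change of −2.02 ± 0.412 (adjusted p-value 0.0254, edgeR). They lay apart again between stages 4 and 5, with −1.80 ± 0.419, which was not called (adjusted p-value 0.092, edgeR). The call of the first of these steps was lost with any one library of its stages left out. At stage 1 the log2 change of TIP1-3 against control was 0.43 ± 0.397 (adjusted p-value 0.522, edgeR). It was lower than control at stage 3, with −1.91 ± 0.411 (adjusted p-value 0.00727), and at stage 5, with −4.28 ± 0.459 (adjusted p-value 2.15e-05, both edgeR). It was also lower at stage 4, with −2.48, and leaving out 1 library moved that change between −3.45 (without stage 4 replicate 2) and −1.91. The stage 3 call was lost without control replicate 2 (−1.60, adjusted p-value 0.0514), stage 3 replicate 1 (−1.87, 0.0712) or stage 3 replicate 2 (−1.94, 0.0506, all edgeR).

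**Figure D2:**
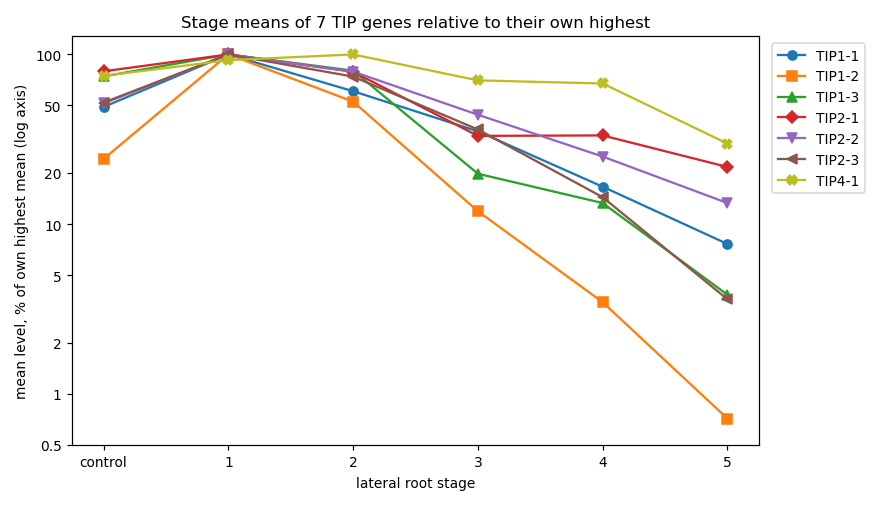
Mean level of each tested TIP as a percentage of its own highest group mean (log axis) by stage, 1 line per gene. TIP1-2 ended at 0.713% of its highest mean and TIP4-1 at 29.8%, with the other genes between them.

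Among the TIP2 genes, whose Arabidopsis relatives also carry ammonia, TIP2-3 was the abundant one. It had 1451 and 1197 CPM in the control, 2599 and 2494 at stage 1, 2443 and 1324 at stage 2, 900 and 936 at stage 3, 211 and 521 at stage 4, then 62.4 and 121 at stage 5. The duplicates of stages 2, 4 and 5 differed widely, but the libraries of stages 3, 4 and 5 did not overlap with each other. Its change at stage 1 was 0.94 ± 0.403 log2 units (adjusted p-value 0.148, edgeR). It fell at stage 4, with −1.85 ± 0.413 (adjusted p-value 0.00491, edgeR). Leaving out 1 library moved that change between −2.68 (without stage 4 replicate 2) and −1.35. At stage 5 TIP2-3 was 14.6 times lower than in the control, with −3.87 ± 0.455 (adjusted p-value 4.12e-05, edgeR).

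TIP2-1 was among the lower members. It had 151 and 161 CPM in the control, 170 and 224 at stage 1, 164 and 147 at stage 2, 62.1 and 68 at stage 3, 47.6 and 83.5 at stage 4, then 37.9 and 47.4 at stage 5. The control and stage 2 libraries overlapped, and those of stages 3 and 4 overlapped. Both stage 1 libraries lay above those of the control, and both stage 5 libraries lay below those of stages 3 and 4. The log2 change against control was −1.26 ± 0.255 at stage 3 (adjusted p-value 0.00475), −1.25 ± 0.254 at stage 4 (0.00286) and −1.88 ± 0.267 at stage 5 (0.000161, all edgeR). The stage 3 call was lost without stage 3 replicate 1 (−1.20, adjusted p-value 0.0572, edgeR).

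TIP2-2 was uncertain in the control, where its libraries stood at 479 and 140 CPM. It had 669 and 533 CPM at stage 1, 548 and 404 at stage 2, 232 and 298 at stage 3, 172 and 129 at stage 4, then 82.7 and 77.2 at stage 5. The control libraries overlapped with those of stages 2, 3 and 4. The call at stage 5 (−1.96 ± 0.435 log2 units, adjusted p-value 0.00324, edgeR) held without control replicate 1, at −0.81 (adjusted p-value 0.0391), and without control replicate 2, at −2.58, so its size depends on which control library is used. At stage 4 the change was −1.05 ± 0.417 (adjusted p-value 0.0724, edgeR), and DESeq2 called it (−1.09, adjusted p-value 0.0237). Without control replicate 1 that change was 0.10 (adjusted p-value 0.816), and without control replicate 2 it was −1.67 (0.00109, both edgeR), so its direction rests on 1 control library.

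TIP4-1, the member of the TIP4 subfamily, had the smallest change at stage 5. It had 266 and 115 CPM in the control, 258 and 212 at stage 1, 246 and 262 at stage 2, 139 and 219 at stage 3, 160 and 183 at stage 4, then 70.6 and 80.9 at stage 5. Its order from high to low was stage 2, stage 1, control, stage 3, stage 4 and stage 5, and of these neighbours only stages 4 and 5 did not overlap. The change at stage 4 was −0.16 ± 0.326 log2 units (adjusted p-value 0.75, edgeR). At stage 5 the gene was lower than control, with −1.34 ± 0.339 (adjusted p-value 0.00705, edgeR). That call was lost without control replicate 1 (−0.60, adjusted p-value 0.106) and without stage 5 replicate 1 (−1.23, adjusted p-value 0.0554, edgeR). Stage 5 was also lower than stage 1, with −1.64 ± 0.34 (adjusted p-value 0.00231, edgeR).

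The TIP3 genes, which belong to seed storage vacuoles, were at or near 0 in nearly all libraries. TIP3-1 had no count in 7 of the 12 libraries, 4 counts in stage 2 replicate 2 and in stage 4 replicate 1, and 13 counts (2.18 CPM) in stage 1 replicate 2. TIP3-2 had 68 counts in stage 1 replicate 2 and at most 4 in any other library. The 68 counts make 11.4 CPM, with an exact Poisson 95% interval of 8.84 to 14.4, against 0.169 CPM (1 count) in the other stage 1 library. That 1 library held 87.5% of the summed CPM of TIP3-2 and 43.8% of that of TIP3-1. The other stage 1 library had 0 counts of TIP3-1. Since the 2 stage 1 libraries differed for both genes, they do not give a level for stage 1.

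Counted by stage, the TIPs called against the control from stage 3 on were all lower. At stage 1, edgeR called 1 of the 7 tested TIPs higher and 0 lower, with a median log2 change of 0.94 over the 7. That 1 call, lost in the fits named above for TIP1-2, stands beside 9.94% of all tested genes called higher, so it is no result about the family. At stage 2, edgeR called 0 in either direction, where 5.99% of tested genes were called. The unadjusted p-value was under 0.05 for 1 TIP there, and the share of all tested genes at that limit was not counted. DESeq2 also called 0 TIPs at stage 2, and the median was 0.41. At stage 3, edgeR called 2 lower (TIP1-3 and TIP2-1), where 3.26% of tested genes were called lower. All 7 changes were negative at that stage, with a median of −0.53. DESeq2 also called TIP1-2 lower at stage 3 (−1.11, adjusted p-value 0.0389), where it called 2980 of 18357 genes in either direction. At stage 4, edgeR called 5 lower, against 13.5% of tested genes. All 7 changes were again negative, with a median of −1.56. DESeq2 called 6 lower at stage 4, and 5748 of 18357 genes in either direction. At stage 5 all 7 tested TIPs were lower, against 21.8% of tested genes, with a median of −2.69, while the median over all tested genes was 0.0215. These 5 comparisons share the control libraries.

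**Figure D3:**
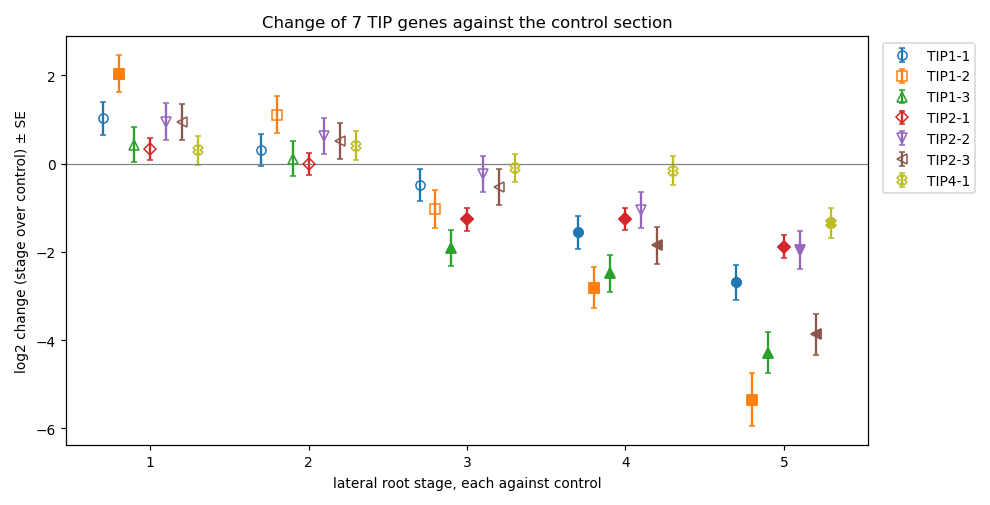
The log2 change of the 7 tested TIPs at each stage over the control (vertical axis, bars are ± SE), with filled symbols for an adjusted p-value under 0.05 in edgeR. At stage 1 only TIP1-2 is filled, at 2.04, and at stage 5 all 7 are filled, from −1.34 for TIP4-1 to −5.35 for TIP1-2.

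Of the steps between consecutive stages, the edgeR model of all 12 libraries called TIPs at the one in which the primordium passed the endodermis. At stage 3 against stage 2, the log2 change was −2.15 ± 0.432 for TIP1-2 (adjusted p-value 0.0238), −2.02 ± 0.412 for TIP1-3 (0.0254) and −1.26 ± 0.254 for TIP2-1 (0.0245, all edgeR). These were 3 of 7 tested TIPs, where 1.17% of tested genes were called lower. These calls were lost with any one of the 4 libraries of this step left out, where far fewer of all tested genes were called as well. Leaving out 1 library moved the change between −2.41 and −1.82 for TIP1-2, −2.10 and −1.93 for TIP1-3, and −1.33 and −1.18 for TIP2-1. With only these 4 libraries fitted, 6 TIPs were called, where 1836 of 17001 tested genes were called in either direction.

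The other steps had no TIP call in that model, though other edgeR settings gave some, and differences between steps were not tested. At stage 2 against stage 1, 0.278% of all tested genes were called and 1 TIP had an unadjusted p-value under 0.05. DESeq2 called 0 TIPs there, and 153 of 18357 genes. At stage 4 against stage 3, 0.0872% of tested genes were called and 3 TIPs had an unadjusted p-value under 0.05. DESeq2 called 1 TIP at that step, and 174 of 18357 genes. At stage 5 against stage 4, 0% of tested genes and 0 TIPs were called by adjusted p-value, and 6 of the 7 TIPs had an unadjusted p-value under 0.05. How many of all tested genes had an unadjusted p-value under 0.05 was not counted at any of these steps. The TIP counts at that limit therefore have no share of all genes beside them. At stage 5 against stage 4 the log2 changes lay between −2.55 and −0.63, all negative, with a median of −1.18 against −1.04 at stage 3 against stage 2. The smallest adjusted p-value was 0.0898 (edgeR). DESeq2 called 4 TIPs lower there, and 553 of 18357 genes in either direction. Without a filter edgeR called 3, 4 and 6 TIPs at these steps in stage order, where 527, 757 and 1430 of 25900 genes were called. At the last step edgeR also called some TIPs without control replicate 1, control replicate 2 or stage 4 replicate 1. In those fits more of all tested genes were called as well. Over the whole span, stage 5 against stage 1, all 7 tested TIPs were lower, where 23.2% of tested genes were, with changes between −7.39 and −1.64.

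The make-up of the TIP pool differed between the groups. TIP1-1, TIP1-3 and TIP2-3 together led every library: the most abundant TIP was TIP1-1 in 7 libraries, TIP1-3 in 3 and TIP2-3 in 2. The TIP1-3 share of the summed TIP level was 14.7% and 17.7% at stage 5, against 26.4% and 44.4% in the control. The TIP4-1 share was 11.1% and 14.5% at stage 5, against 2.29% and 4.64% in the control. TIP2-1 likewise made up 6.52% and 7.81% at stage 5, against 2.64% and 3.23% in the control. The stage 5 share of TIP2-2 was 10.6% and 17%, against 2.81% and 8.35% in the control. For TIP1-1 it was 29.7% and 39.5%, against 21.7% and 29.4%. For TIP2-3 it was 12.9% and 16.6%, against 24% and 25.3%. For TIP1-2 it was 0.271% and 0.878%, against 1.56% and 3.2%. The ratio of TIP1-2 to TIP4-1 was 2.3 and 2.29 at stage 1, 0.691 and 0.682 in the control, then 0.0187 and 0.0789 at stage 5. These genes had the largest and the smallest stage 5 change of the tested TIPs, so a large shift of their ratio follows from choosing them. The stage 5 ratios also rest on 5 and 12 counts of TIP1-2. Differences between TIP genes in their change were not tested.

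**Figure D4:**
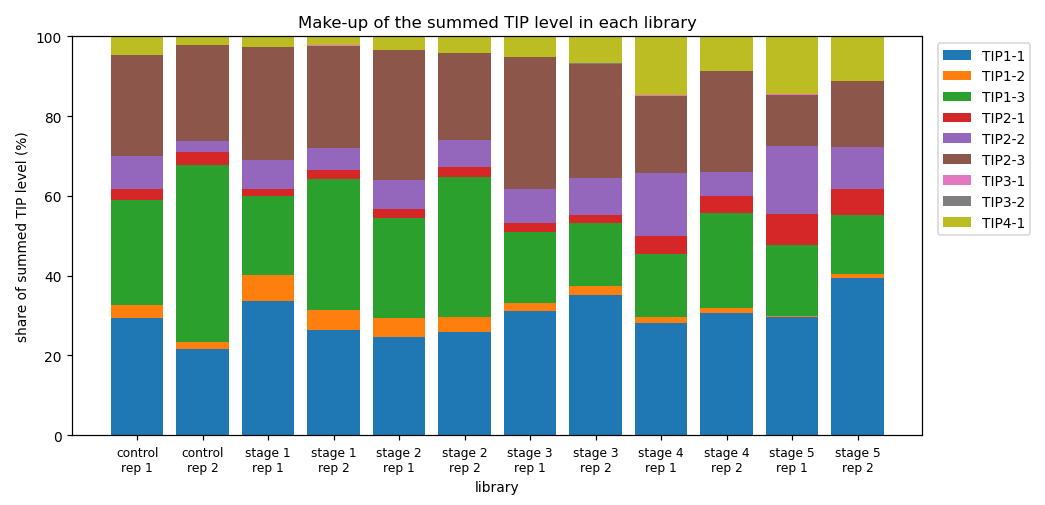
Share of each TIP gene in the summed TIP level (%, vertical axis) for each of the 12 libraries in stage order, 2 libraries per group. TIP4-1 filled 11.1% to 14.5% at stage 5, against 2.29% to 4.64% in the control, and TIP3-1 and TIP3-2 were too small to see in nearly all bars.

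The profiles of the tested TIPs resembled one another over the 12 libraries. Pearson's r of log2(CPM + 1) was highest for TIP1-2 with TIP1-1, at 0.989, and lowest for TIP4-1 with TIP2-1, at 0.698. The libraries share their depth and stage, so these values only describe likeness. Of 11259 other tested genes with a mean of at least 10 CPM, Solyc06g084300 was closest to TIP1-1 (r = 0.996 over 12 libraries) and Solyc01g097340 was closest to TIP1-2 (r = 0.992). Neither tag is paired with a name in the sources used here.

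Within each group most of the tested TIPs, but not always all, were higher in the same replicate. Replicate 2 was above replicate 1 for 2 of 7 tested TIPs in the control (median difference −0.64 on the log2(CPM + 1) scale), 2 at stage 1 (−0.27), 2 at stage 2 (−0.23), all 7 at stage 3 (0.31), 6 at stage 4 (0.80) and 6 at stage 5 (0.31). Over all 18357 tested genes the median difference lay between −0.04 and 0.00, and 7971 to 9173 of them were higher in replicate 2. At stage 1 TIP1-3 was higher in replicate 2, by 0.81, and so was the TIP sum (9730 against 9214 CPM). At stage 4 TIP2-2 was the exception, at −0.42. With stage 4 replicate 1 left out, the change of TIP1-1 at stage 4 against control was −1.13, and with both stage 4 libraries it was −1.56.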

How the data were processed

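RNA was measured in 12 libraries, prepared per the labels' protocols with Lexogen's QuantSeq chemistry for transcript 3′ ends. The authors' deposited table gives estimated counts per gene, with 1 column per library, matched to samples by the labels. Salmon 1.3.0 and DESeq2 are named in the submitters' processing notes, without their roles. The genome build, annotation and strand setting are not given in the sources used here. No molecular identifiers are mentioned, so intervals and floors cover counting error only.

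Estimated counts were rounded to whole counts. Genes passing filterByExpr by stage were scaled by TMM and fitted in 1 model of stage over all libraries, using the quasi-likelihood functions of edgeR 4.0.16 under R 4.3.3 with limma 3.58.1, which left 6 residual degrees of freedom. The slope used stage number, a rank. p-values were Benjamini-Hochberg adjusted over all 18357 tested genes, with 0.05 as the threshold. SE is the log2 change divided by the square root of F. Fits were tested on simulated counts. Alternatives were DESeq2 1.42.0, its size factors in edgeR, other filters, a replicate block, only the libraries compared, a slope without control libraries, and leaving out each library. The libraries of a pair differed by more than sampling noise (chi-square per degree of freedom 6.21 to 11.8).

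The members and lists were chosen with earlier results of these data known. All 9 TIPs are named. Of other genes, the rule named the 3 most alike to the most abundant TIP and to that of the widest range, of which the closest is given because no source used here names these tags. Lists planned for other aquaporins, proton pumps and tissue markers are not reported, because no source used here ties their tags to those roles.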

Additional observations from a re-analysis of the deposited data

Results flagged for a closer look

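TIP1-2 differed in direction between stages under the same contrast: it was higher than the shared control at stage 1 (2.04 log2 units) and lower at stage 5 (−5.35), and the direct test of stage 5 against stage 1 gave −7.39 ± 0.615 (SE; adjusted p-value 1.25e-05, edgeR). The stage 1 call against control was lost without control replicate 2 (1.56) and without stage 1 replicate 1 (1.89), so the change of direction rests on a call that single libraries end. The stage 5 libraries had 5 and 12 counts of this gene, close to the floor of 3 counts. The direct test does not use the control libraries for its difference, and both stage 5 libraries were below both stage 1 libraries. Leaving out 1 library moved that difference between −8.65 and −6.37.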

How the results depend on the processing

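At stage 5 against stage 1 all 7 tested TIPs were lower under every alternative that tested them, and without a filter TIP3-2 was called lower too, 8 of 9. The TIP3-2 call rests on 1 library, with 68 counts in stage 1 replicate 2 and 1 count in stage 1 replicate 1. Counts of TIPs called that differed over 1.5 times from edgeR's main count (given in brackets) follow. At stage 1 (1), no filter gave 5, where 3629 of 25900 genes were called in either direction. With 10 counts in every library it was 0, with TIP1-2 no longer tested, where 1544 of 11774 genes were called. Only the 4 libraries compared gave 2, where 1430 of 16871 genes were called. Without a filter, stage 2 against control (0) gave 1, stage 2 against stage 1 (0) gave 3, stage 3 against stage 2 (3) gave 6, stage 4 against stage 3 (0) gave 4 and stage 5 against stage 4 (0) gave 6. Only the 4 libraries compared gave 6 at stage 3 against stage 2. DESeq2 gave 1 at stage 4 against stage 3 and 4 at stage 5 against stage 4. Leaving out 1 library gave 0 to 3 at stages 1, 2 and 3 against control, 0 to 4 at stage 3 against stage 2, and 0 to 3 at stage 5 against stage 4. It gave 4 to 6 at stage 4, 6 to 7 at stage 5, and 6 to 7 for the F test and the slope. At stage 2 the 3 calls came without control replicate 1. TIP2-2 at stage 3 (−0.23) ranged from −0.85 without control replicate 2 to 0.92 without control replicate 1, where it was called higher (adjusted p-value 0.0494, edgeR). The cause of these shifts was not tested.

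With a replicate block, the slope count was 6 instead of 7, as TIP4-1 had −0.23 with an adjusted p-value of 0.0503 (edgeR), and no other TIP count moved, nor did any with DESeq2 size factors. Replicate differences of the stages had a mean correlation of 0.0518 over 15 pairs of stages (−0.0896 to 0.25), so the numbers are not shown to pair the libraries. Over all genes, counts that moved over 1.5 times were those of stage 2 against control (1099, but 289 with only the 4 libraries compared and 2298 without a filter), stage 1 against control (2432, but 1430 with only the 4 libraries and 1544 with 10 counts in every library), stage 5 against control (8490, but 5605 with only the 4 libraries) and the steps between stages. Those were 51, 687, 16 and 0 in order, against 527, 1758, 757 and 1430 without a filter, and 153, 1005, 174 and 553 with DESeq2. The replicate block gave 98 and 42 for the first and the third step, only the 4 libraries 140 and 1836 for the first and the second, and 10 counts in every library 12, 3 and 39 for the first, the third and the last. Leaving out 1 library gave 846 to 3003 genes at stage 1, 369 to 1914 at stage 2, 1501 to 3463 at stage 3 and 3329 to 6649 at stage 4 against control, and 7 to 69, 0 to 1172, 2 to 48 and 0 to 392 for the steps. Depth limits TIP1-2 at stage 5 and both TIP3 genes.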

Other observations

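In stage 1 replicate 2, the library that held most of the TIP3-2 counts, 4 genes had at least 20 counts and over 90% of their summed CPM in that library alone. The number was 2 in stage 4 replicate 2, 1 in control replicate 2 and 0 in each of the other 9 libraries. TIP3-2 itself, at 87.5%, was not among the 4. These counts were made after the values of TIP3-2 were seen.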
